A study of Mus musculus with 14 samples.

Results

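The comparison asks whether the transcript response to N-Myc differed between hematopoietic progenitor cells (HPCs) with a Polg mutation on both alleles and wild-type HPCs. It is a difference of effects: the change from the control vector to the N-Myc vector in homozygous cells, minus the same change in wild-type cells. Its members were the arrays whose titles place them in the WT-Ctrl, WT-NMyc, Hom-Ctrl and Hom-NMyc groups, 9 of the 14 arrays of the series. Among these 9 arrays, 3 were WT-Ctrl and 2 each were WT-NMyc, Hom-Ctrl and Hom-NMyc. The remaining 5 arrays came from heterozygous (Het) cells and entered only through the estimate of the spread between replicates.

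The HPCs were mouse bone marrow cells depleted of lineage-positive cells on an autoMACS separator, cultured, and then transduced with retrovirus made by GP+E86 packaging cells. Wild-type (WT) cells carried Polgwt/wt, Het cells Polgwt/mut and homozygous (Hom) cells Polgmut/mut. The Ctrl vector was MSCV-IRES-YFP, which encodes a yellow fluorescent marker, and the NMyc vector was MSCV-NMyc-IRES-YFP, which adds N-Myc to the same backbone. All groups therefore carried a retroviral vector, the Hom-Ctrl and Hom-NMyc cells shared the Polg mutation, and the labels call the arrays biological replicates without saying how many animals stood behind each or whether transduced cells were sorted. The series was set up to follow expression changes that accompany N-Myc and the build-up of mitochondrial DNA mutations.

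Polg encodes the catalytic part of DNA polymerase gamma, which replicates the mitochondrial genome, and mice with a proofreading-deficient form accumulate mitochondrial DNA mutations and develop blood cell defects. N-Myc, the product of Mycn, is a transcription factor of the MYC family that raises ribosome, nucleotide and mitochondrial gene expression and can drive leukemia when overexpressed in marrow progenitors. ATF4 is the transcription factor of the integrated stress response, a pathway that mitochondrial dysfunction and amino acid shortage are known to engage and that raises genes of amino acid uptake and synthesis.

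Values are log2 expression levels from 1 whole-transcript array per sample. The 9 arrays and the 5 Het arrays had medians within 0.084 of each other, correlations between arrays over the probe sets were 0.958 to 0.994, and the median of the negative control sets, used here as background, was 4.59. Mycn read 7.58, 7.76 and 7.43 in the WT-Ctrl arrays, 12.17 and 12.30 in the WT-NMyc arrays, 9.77 and 7.61 in the Hom-Ctrl arrays and 12.38 and 12.28 in the Hom-NMyc arrays. The library labelled Hom-Ctrl replicate 1, at 9.77, lay higher than the remaining Ctrl arrays yet did not reach the NMyc arrays. Whether some of its cells carried the NMyc vector was not tested, and every Hom effect and Hom-Ctrl mean includes this array unless stated. Called sets and list medians are given with and without it. The Mycn effect was 4.64 in WT and 3.64 in Hom, a difference of -1.0 (SE 0.57, limma adjusted p = 0.662). Without Hom-Ctrl replicate 1 this difference was 0.08 (adjusted p = 0.968). The mean of the positive control sets over that of the negative ones, a sign of RNA and hybridization quality, was 3.19 to 3.71 in WT-Ctrl, 3.61 to 3.85 in WT-NMyc, 3.55 to 3.63 in Hom-Ctrl and 4.05 to 4.06 in Hom-NMyc, and its part in the results was not tested. Polg, whose mutation a transcript level does not read, showed a difference of 0.08 (SE 0.28, adjusted p = 0.963). In bulk RNA of this kind, fewer cells of a type and less RNA per cell cannot be told apart.

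Of 22206 probe sets tested, 18 (0.0811%) had a difference of effects that passed the test, limma's moderated test with Benjamini-Hochberg adjustment at 0.05. For 16 of them (0.0721%) the response was higher, that is more positive or less negative, in Hom than in WT, and for 2 (0.00901%) it was lower. The higher sets included Chac1, Cth and Vldlr, which take part in glutathione breakdown, cysteine synthesis and lipoprotein uptake, the survival genes Bcl2a1b and Bcl2a1d, and the myeloid genes Ltf, Siglecf and Serpinb10. The lower sets were Ptgds and Slc28a1. At an unadjusted p under 0.05 there were 1896 sets (8.54%), 1124 higher (5.06%) and 772 lower (3.48%). Over all tested sets the median difference was -0.00015, with 49.98% above 0 and 5th and 95th percentiles of -0.52 and 0.60.

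**Figure D1:**
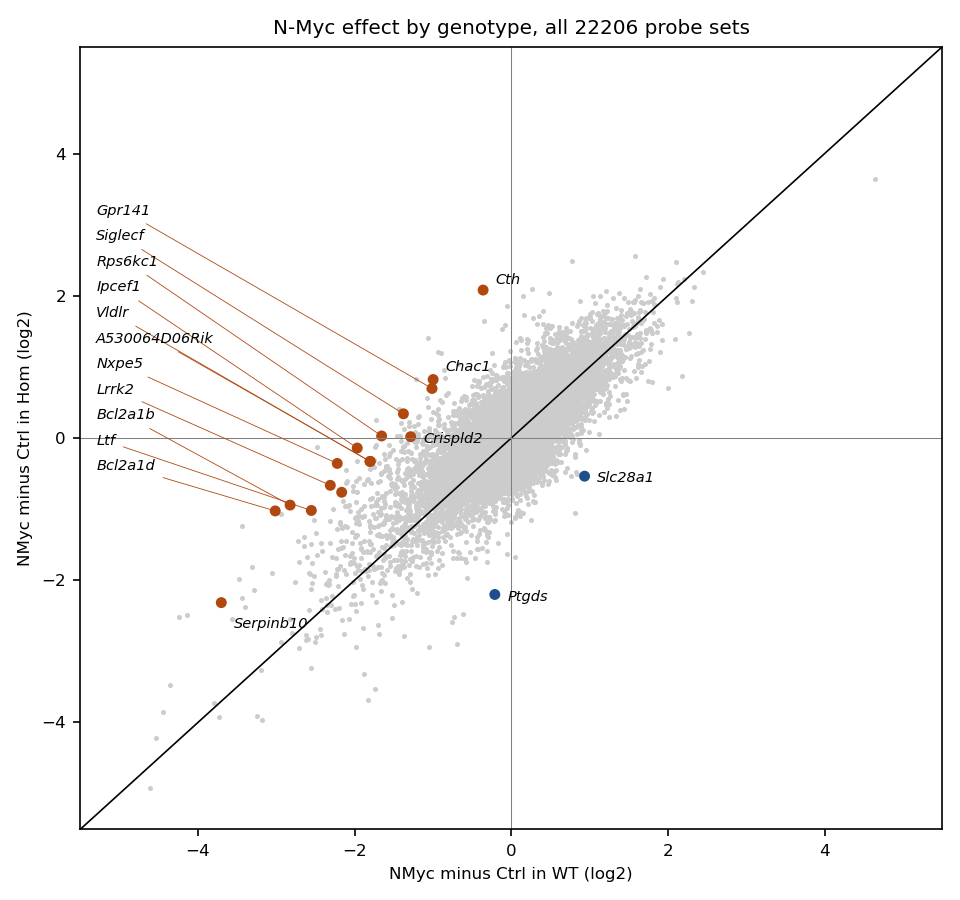
Effect of N-Myc (NMyc minus Ctrl, log2) in wild-type cells on the x axis and in homozygous cells on the y axis for each of the 22206 tested probe sets (grey), with the line of equal effects. The 16 called sets above the line (orange) all have a negative effect in WT, and the 2 below it (blue) are Ptgds and Slc28a1.

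The group levels of the called sets show where each difference lay, as a description only, because the same arrays chose the sets and a positive difference favours a negative WT effect and a Hom-Ctrl level under WT-Ctrl. All 16 higher sets had a WT effect below 0, which passed its own test in 15, while the Hom effect was above 0 in 6 (3 passing) and below 0 in 10 (6 passing). Both Hom-Ctrl values lay below all WT-Ctrl values for 16 of the 18 sets and above them for the other 2, against 13.7% below and 14.1% above over all tested sets. Hom-NMyc lay above WT-NMyc for 13 sets and below for 2, against 25.9% above and 22.1% below over all tested sets. Between genotypes, 868 sets (3.91%) passed the test with Ctrl and 0 (0.0%) with NMyc. Limma gave 3774 (17.0%) with Ctrl and 1873 (8.43%) with NMyc at an unadjusted p under 0.05. WT had 3 arrays with Ctrl and 2 with NMyc, so the precision of the 2 comparisons differs. The N-Myc effect itself passed for 4250 sets (19.1%) in WT and 3924 (17.7%) in Hom, and had an unadjusted p under 0.05 for 29.1% and 28.9%. These 4 simple differences use the same arrays as the difference of effects and describe where it comes from, so they are no independent support for it.

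**Figure D2:**
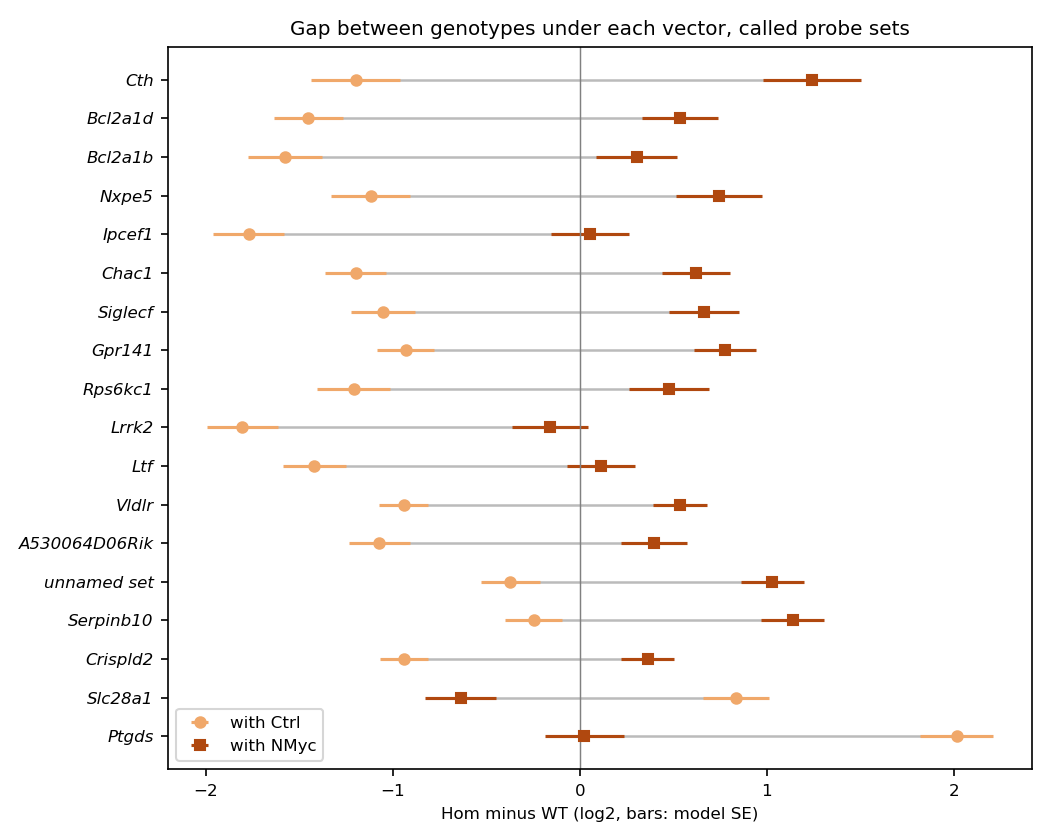
Difference between homozygous and wild-type cells (log2, bars show the model's standard error) with the Ctrl vector (circles) and with the NMyc vector (squares) for the 18 called probe sets. For Cth the gap moves from -1.20 with Ctrl to 1.24 with NMyc, whereas for Ipcef1, Lrrk2, Ltf and Ptgds the gap seen with Ctrl lies near 0 with NMyc.

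The count depended strongly on individual arrays and on how the spread was estimated. Fitting only the 9 WT and Hom arrays left 0 calls (1690 at an unadjusted p under 0.05), and leaving out only the controls named AFFX, 31 of the 6640 control sets, left 5. Without WT-NMyc replicate 1, WT-NMyc replicate 2 or Hom-NMyc replicate 2 limma called 0 sets (1490, 1511 and 1308 at an unadjusted p under 0.05), and without Hom-NMyc replicate 1 it called 1. It called 10 without WT-Ctrl replicate 2, 8 without WT-Ctrl replicate 3, 10 without Hom-Ctrl replicate 2 and 11 without each Het-NMyc array in turn. It called 33 without WT-Ctrl replicate 1 and 33 without Hom-Ctrl replicate 1, of which 14 were among the 18. The sign of the difference was the same for all 18 sets within the run of sample codes that holds 1 array of each of the 4 groups. Those 4 arrays were among the arrays that chose the 18 sets, so the shared sign is no independent support. Where a group keeps a single array, that array is assumed to vary like the other groups. Counts given below over the 14 fits that left out 1 array include the 5 without a Het array. Those 5 leave every difference unchanged and alter only the estimate of the spread.

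**Figure D3:**
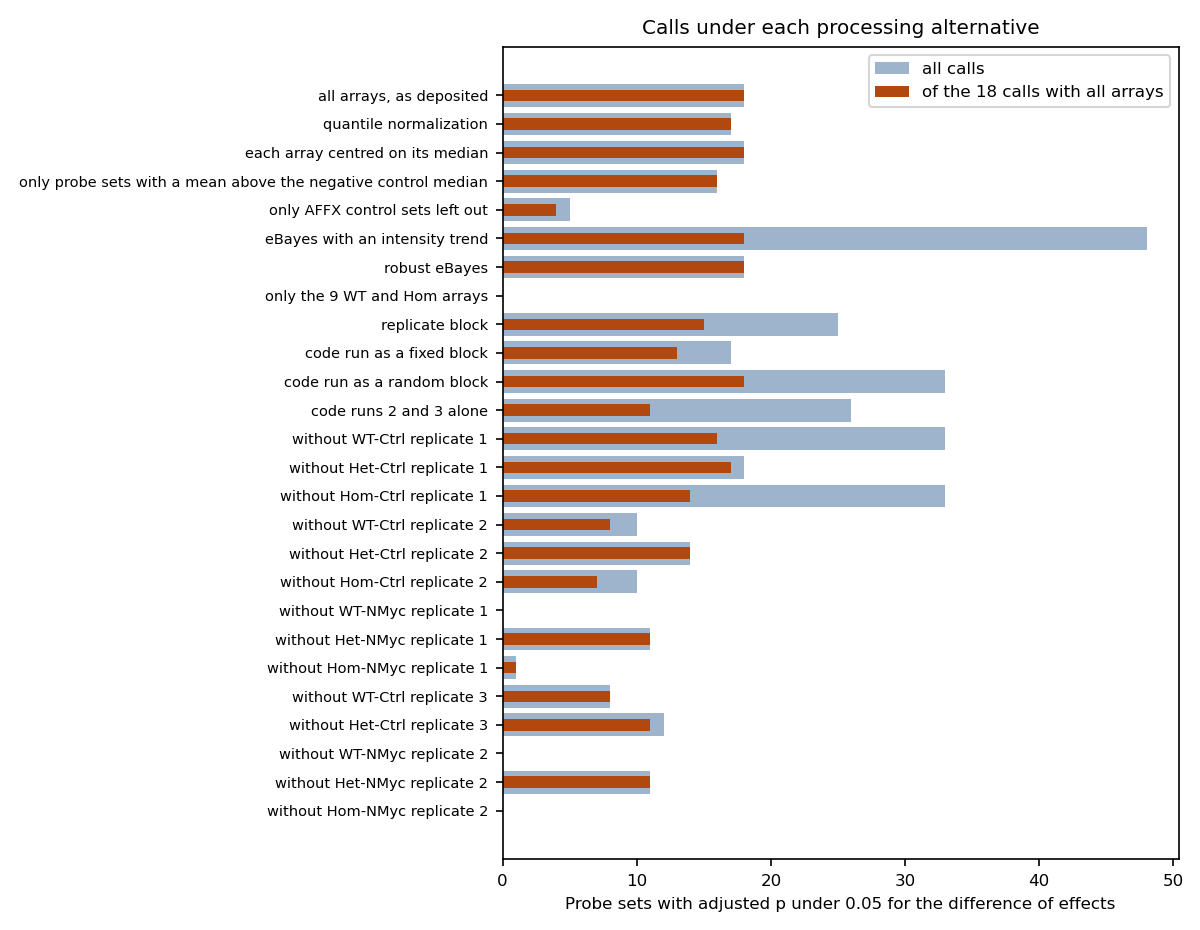
Number of probe sets called for the difference of effects (x axis) under each processing alternative and with each array left out (y axis), with the narrow orange bars counting those among the 18 called with all arrays. The count ranges from 0, with the 9 WT and Hom arrays alone or without WT-NMyc replicate 1, WT-NMyc replicate 2 or Hom-NMyc replicate 2, to 48 with an intensity trend in the spread.

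**Figure D4:**
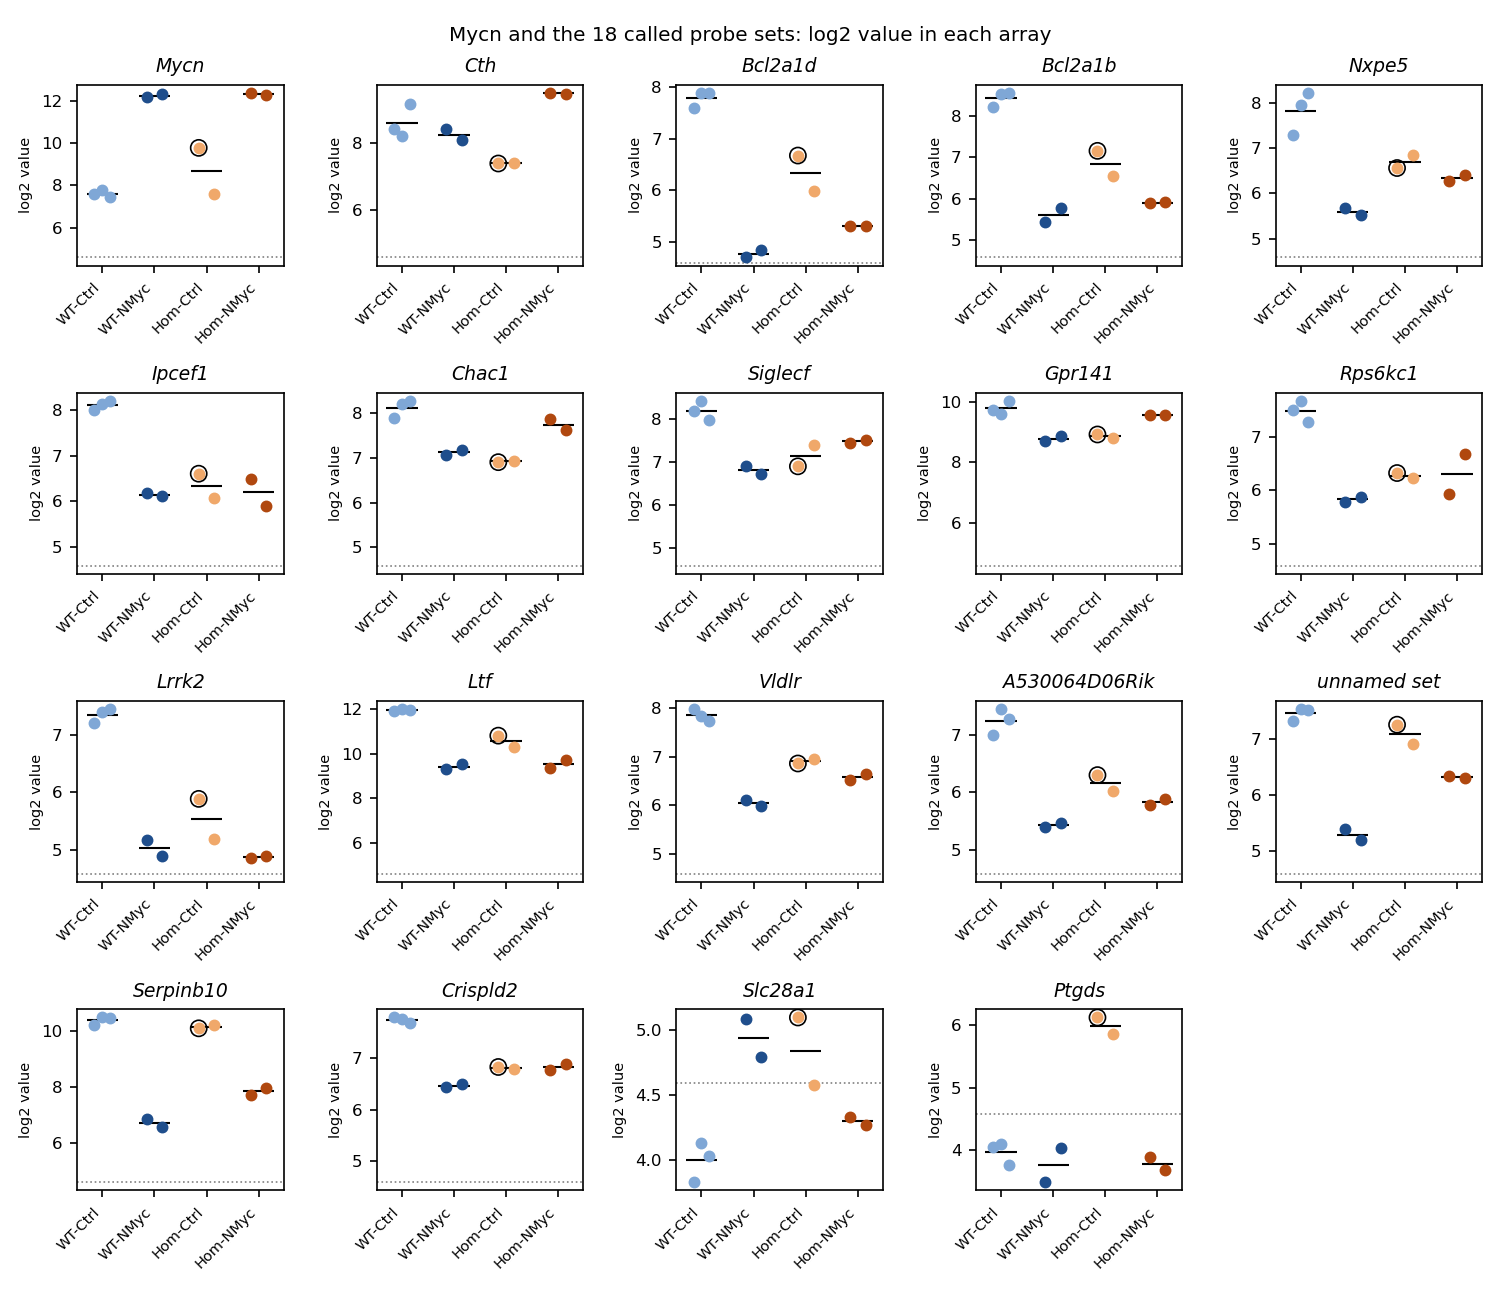
Log2 value in each WT and Hom array for Mycn and the 18 called probe sets, 1 panel each, with group means as bars and the negative control median of 4.59 as a dotted line. The ringed point is Hom-Ctrl replicate 1, which reads 9.77 for Mycn, and for Cth the Hom-NMyc arrays (9.51 and 9.47) lie above all others.

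Genes of the integrated stress response are described first, with the promoter stretches of the called members that hold a match to an ATF4 element. Chac1 encodes an enzyme that breaks down glutathione and is a known ATF4 target, and Vldlr encodes the very low density lipoprotein receptor. The 250 bases before a RefSeq start of each are shown 5′ to 3′ (build GRCm38.p6, plus strand), at chr2:119350992-119351241 for Chac1 and chr19:27216770-27217019 for Vldlr, with the match to the element TGATGNAA, here on the minus strand, in capitals.
Chac1: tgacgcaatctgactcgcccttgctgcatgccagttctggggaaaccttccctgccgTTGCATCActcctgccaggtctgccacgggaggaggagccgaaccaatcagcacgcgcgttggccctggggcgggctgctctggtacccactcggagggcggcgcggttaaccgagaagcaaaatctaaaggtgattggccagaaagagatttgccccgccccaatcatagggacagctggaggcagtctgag
Vldlr: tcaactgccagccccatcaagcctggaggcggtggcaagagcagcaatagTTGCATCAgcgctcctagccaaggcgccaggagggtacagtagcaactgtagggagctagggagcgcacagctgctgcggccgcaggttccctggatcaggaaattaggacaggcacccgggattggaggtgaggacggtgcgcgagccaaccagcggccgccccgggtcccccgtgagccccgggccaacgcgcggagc
For Vldlr the start is that of a transcript beginning inside the gene, downstream of its first RefSeq start. The match lies 193 to 186 bases before the start in Chac1 and 200 to 193 bases before it in Vldlr. Searched on both strands, TGATGNAA occurred in 3.45% of all 32851 promoter windows of this length and in at least 1 window of 3.91% of the 27025 genes, against 6 of the 21 genes of the ATF4 list with a window (28.6%) and 3 of the 16 called genes with one (18.8%). The third called gene was Bcl2a1b, with its match 40 to 33 bases before the start, past the end of the Bcl2a1b stretch shown further below. The matching stretch of its near-identical copy Bcl2a1d already reaches the Bcl2a1d start, and bases beyond that start were not searched. A match in only 1 of these 2 copies may thus reflect where their annotated starts lie. The E-box CACGTG, the sequence that MYC proteins bind, occurred in 6.02% of windows and 6.86% of genes, against 1 of the 16 called genes (6.25%, Crispld2). Chac1 and Vldlr count both among the ATF4 list genes and among the called genes, so these shares are not separate observations. No window was available for Cth, so its promoter was not searched. A match is a description of these letters, not a bound site.

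Chac1 read 7.89, 8.21 and 8.27 in WT-Ctrl, 7.07 and 7.18 in WT-NMyc, 6.90 and 6.94 in Hom-Ctrl and 7.88 and 7.61 in Hom-NMyc. It was high in WT-Ctrl and in Hom-NMyc and low in the remaining groups, and no array of a genotype overlapped between vectors. With N-Myc it fell by 1.00 in WT (adjusted p = 0.000467) and rose by 0.82 in Hom (adjusted p = 0.00476), a difference of 1.82 (SE 0.24, 3.53-fold, adjusted p = 0.0131). Vldlr read 7.98, 7.84 and 7.74 in WT-Ctrl, 6.10 and 6.0 in WT-NMyc, 6.86 and 6.96 in Hom-Ctrl and 6.53 and 6.64 in Hom-NMyc. Its arrays fell into 4 levels without overlap, WT-Ctrl highest and WT-NMyc lowest. Vldlr fell by 1.80 in WT (adjusted p = 4.62e-07), the Hom effect was -0.33 (adjusted p = 0.14), and the difference was 1.48 (SE 0.19, 2.78-fold, adjusted p = 0.0131). Both calls held in 10 of the 14 fits that left out 1 array, among them the fit without Hom-Ctrl replicate 1, with differences of 1.80 for Chac1 and 1.43 for Vldlr (adjusted p = 0.0313 for each).

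The list of ATF4 and integrated stress response regulators had 22 measured genes, of which these 2 passed the test and 17 lay above 0. Over all tested sets 0.0811% passed, so 0 calls in any list given here is near that share. The median difference of the ATF4 list was 0.49, against -0.00015 over all sets. It was 0.53 without Hom-Ctrl replicate 1, and 0.36 to 0.57 over the fits that left out 1 array. In the ATF4 list 9 members were higher and 1 lower at an unadjusted p under 0.05 (5.06% and 3.48% over all sets). The median effect of N-Myc was -0.62 in WT and -0.31 in Hom, and the median gap between Hom and WT was -0.37 with Ctrl and 0.08 with NMyc. Members named from here on without having passed the test were picked for their small p or their role after the values were seen. Atf4 itself read 11.80, 11.70 and 11.96 in WT-Ctrl, 11.71 and 11.83 in WT-NMyc, 11.11 and 11.07 in Hom-Ctrl and 11.71 and 11.72 in Hom-NMyc. Only the Hom-Ctrl arrays stood apart, below all others, and the difference of 0.67 (SE 0.22) did not pass (adjusted p = 0.344). Stc2, a secreted glycoprotein, differed by 1.72 (SE 0.42, adjusted p = 0.173) and Trib3, a pseudokinase that restrains ATF4, by 1.31 (SE 0.37, adjusted p = 0.246). The Hom-Ctrl arrays of Stc2 were 7.38 in replicate 1 and 8.82 in replicate 2, the former well below WT-Ctrl (8.75 to 9.02), and without replicate 1 the Stc2 difference was 1.0 (adjusted p = 0.228). Ddit3, the stress factor CHOP, did not follow this order, with effects of -2.25 in WT and -2.40 in Hom (difference -0.15, adjusted p = 0.934).

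Cth, which encodes cystathionine gamma-lyase, the enzyme that forms cysteine at the end of transsulfuration, had the largest positive difference among the called sets. It read 8.44, 8.23 and 9.16 in WT-Ctrl, 8.42 and 8.09 in WT-NMyc, 7.40 and 7.43 in Hom-Ctrl and 9.51 and 9.47 in Hom-NMyc. The Hom-Ctrl arrays were the lowest and the Hom-NMyc arrays the highest, while the WT groups overlapped. Cth rose by 2.08 in Hom (SE 0.26, adjusted p = 8.85e-05) against -0.36 in WT (adjusted p = 0.373), a difference of 2.44 (SE 0.36, 5.43-fold, adjusted p = 0.0147). The difference was 2.43 without Hom-Ctrl replicate 1 (adjusted p = 0.0365) and 2.16 to 2.63 over the fits that left out 1 array, 9 of 14 of which kept the call.

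The wider list of transsulfuration, cystine uptake and glutathione genes did not share this size of difference. Of its 32 measured members, Cth and Chac1 passed the test, 19 lay above 0 and the median was 0.08 (0.06 without Hom-Ctrl replicate 1, 0.15 without WT-Ctrl replicate 2 and 0.14 without WT-NMyc replicate 2). At an unadjusted p under 0.05, 4 of the 32 were higher and 1 lower (5.06% and 3.48% over all sets). Tst, the mitochondrial thiosulfate sulfurtransferase, was at 1.06 (adjusted p = 0.359), and Cbs, the enzyme upstream of Cth in transsulfuration, at -0.18 (adjusted p = 0.913) with every array between 4.61 and 5.36, near background. Ggt7, of the gamma-glutamyltransferase family, was at -0.87 (SE 0.21, adjusted p = 0.15).

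Amino acid uptake, amino acid synthesis and tRNA charging genes leaned the same way without passing the test. Among 26 amino acid transporters limma called 0 and 19 lay above 0. Of the 26, 8 were higher and 0 lower at an unadjusted p under 0.05 (5.06% and 3.48% over all sets). The median was 0.23 (0.43 without Hom-NMyc replicate 1, and 0.26 with Hom-Ctrl replicate 1 left out). Slc7a3, a cationic amino acid transporter, read 7.04, 6.72 and 8.43 in WT-Ctrl, 6.59 and 6.08 in WT-NMyc, 7.04 and 7.30 in Hom-Ctrl and 8.38 and 8.77 in Hom-NMyc. The WT-Ctrl arrays ranged widely, and the Slc7a3 difference of 2.46 had an SE of 0.63 and did not pass (adjusted p = 0.196). Slc7a7, which forms the y+L exchanger with Slc3a2, came closest to a call at 1.81 (SE 0.36, adjusted p = 0.0909).

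Among 20 serine, proline, asparagine and one-carbon enzymes limma called 0 and 14 lay above 0. Of the 20, 6 were higher and 0 lower at an unadjusted p under 0.05 (5.06% and 3.48% over all sets). The median was 0.24, with or without Hom-Ctrl replicate 1. It was 0.38 without Hom-Ctrl replicate 2, 0.10 without WT-Ctrl replicate 3 and 0.02 within the code run that holds all 4 groups. Asns, asparagine synthetase, read 11.18, 10.69 and 11.50 in WT-Ctrl, 10.97 and 11.05 in WT-NMyc, 10.54 and 10.92 in Hom-Ctrl and 11.76 and 11.69 in Hom-NMyc. The Hom-NMyc arrays were the highest, and the difference was 1.11 (SE 0.31, adjusted p = 0.243). The mitochondrial folate enzymes Aldh1l2 and Mthfd2 were at 1.23 (adjusted p = 0.243) and 0.83 (adjusted p = 0.257). The serine synthesis enzymes Phgdh, Psat1 and Psph were at 0.24, 0.20 and 0.24, with adjusted p of 0.852, 0.909 and 0.842, and Psat1 was at -0.17 without Hom-Ctrl replicate 1.

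Among 19 aminoacyl-tRNA synthetases limma called 0, 13 lay above 0, and the median was 0.41. Of the 19, 5 were higher and 0 lower at an unadjusted p under 0.05 (5.06% and 3.48% over all sets). The median for the synthetases was 0.26 without Hom-Ctrl replicate 1, 0.16 without WT-Ctrl replicate 3 and 0.06 within the code run that holds all 4 groups. Cars, the cysteinyl-tRNA synthetase, was at 0.82 (SE 0.21, adjusted p = 0.182), with Hom-Ctrl (8.79 and 8.66) below the WT-Ctrl arrays (9.50, 9.36 and 9.61).

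**Figure D5:**
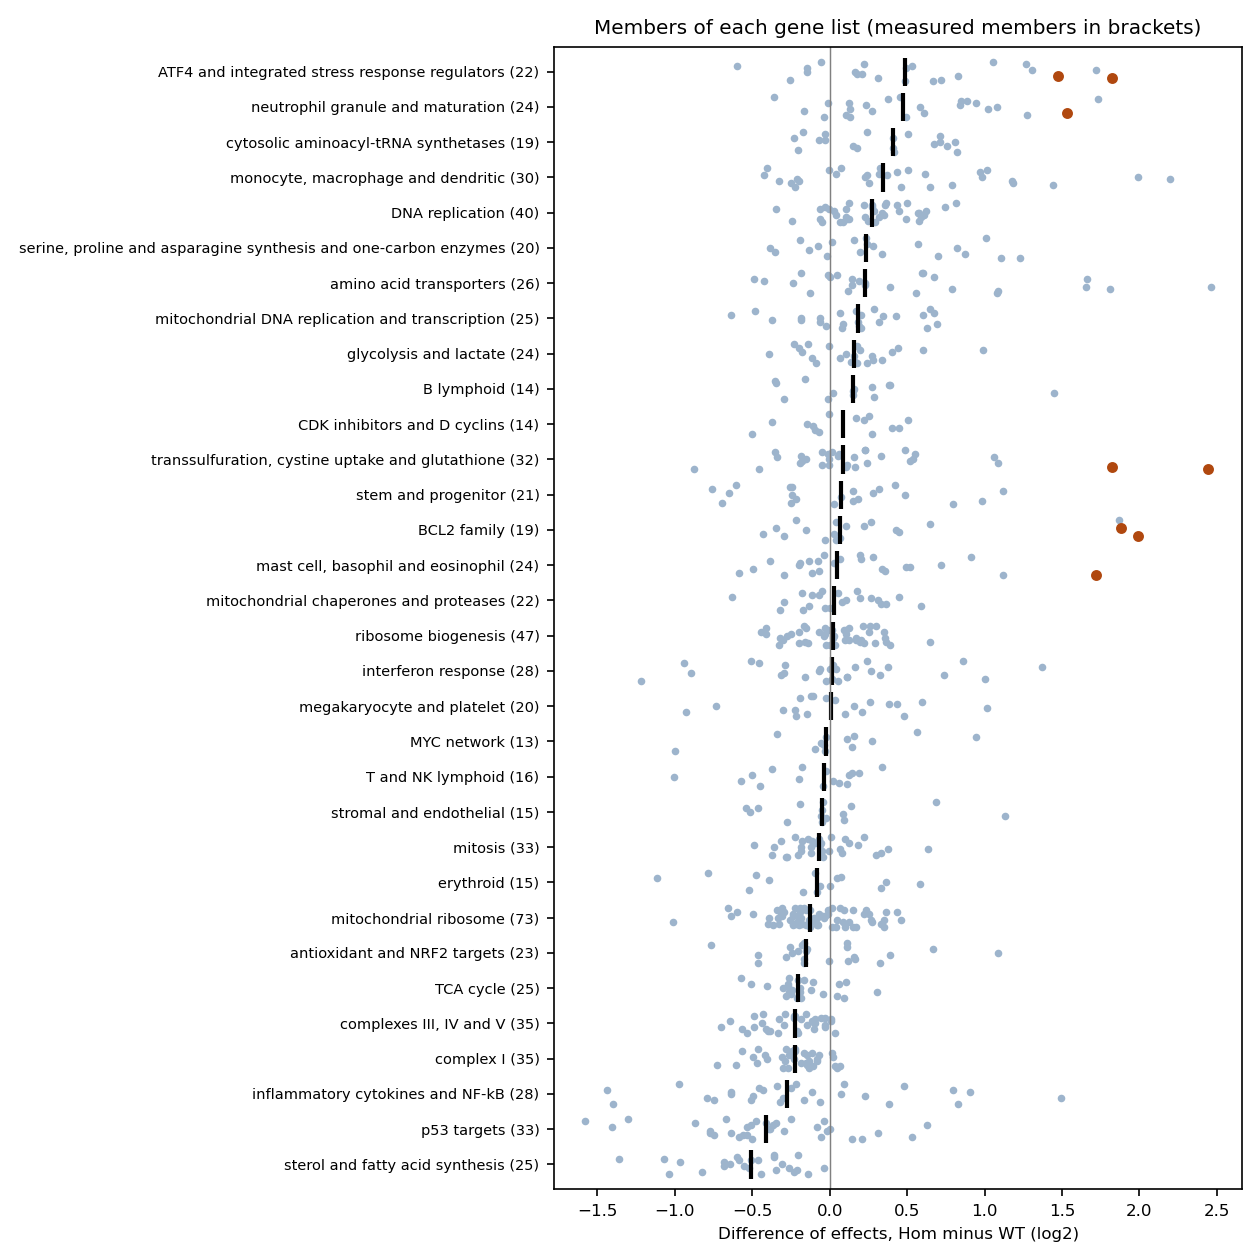
Difference of effects (Hom minus WT, log2, x axis) for every measured member of the gene lists (y axis), with the list median as a black bar, called members in orange and all other members in blue. With all arrays the ATF4 list has the highest median at 0.49 and the sterol and fatty acid list the lowest at -0.51, whereas without Hom-Ctrl replicate 1 the monocyte (0.66) and neutrophil (0.59) lists lie above ATF4 (0.53).

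Bcl2a1b and Bcl2a1d encode copies of A1, a member of the BCL2 family that blocks cell death in myeloid and lymphoid cells. The genes are near-identical copies, so their probe sets may read more than 1 of them, which was not tested because no transcript or probe sequences were compared. Their called sets had similar values, and the stretches of their promoter windows that align, which array probes do not read, are shown for how alike the copies are before the start, 5′ to 3′ in build GRCm38.p6, at chr9:89199023-89199228 on the plus strand for Bcl2a1b and chr9:88731851-88732050 on the minus strand for Bcl2a1d, with bases that differ or are missing in the other copy in capitals.
Bcl2a1b: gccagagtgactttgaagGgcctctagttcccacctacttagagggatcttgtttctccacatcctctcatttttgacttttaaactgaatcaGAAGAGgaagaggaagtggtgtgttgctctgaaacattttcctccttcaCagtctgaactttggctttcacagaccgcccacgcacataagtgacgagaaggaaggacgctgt
Bcl2a1d: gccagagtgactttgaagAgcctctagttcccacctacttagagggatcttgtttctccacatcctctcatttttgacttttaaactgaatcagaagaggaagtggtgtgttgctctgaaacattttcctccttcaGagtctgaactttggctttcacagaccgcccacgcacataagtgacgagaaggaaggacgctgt
The alignment had 198 identical positions, 2 mismatches and 6 gap positions, an identity of 96.1%. Bcl2a1d read 7.59, 7.87 and 7.89 in WT-Ctrl, 4.70 and 4.84 in WT-NMyc, 6.67 and 5.99 in Hom-Ctrl and 5.30 and 5.31 in Hom-NMyc. The groups did not overlap, and WT-NMyc lay just above background. It fell by 3.01 in WT (adjusted p = 1.81e-07) and by 1.03 in Hom (adjusted p = 0.0022), a difference of 1.99 (SE 0.27, 3.97-fold, adjusted p = 0.0131). Bcl2a1b read 8.21, 8.51 and 8.55 in WT-Ctrl, 5.43 and 5.77 in WT-NMyc, 7.15 and 6.55 in Hom-Ctrl and 5.89 and 5.92 in Hom-NMyc, in the same order. It fell by 2.82 in WT (adjusted p = 4.17e-07) and by 0.94 in Hom (adjusted p = 0.0066), a difference of 1.88 (SE 0.29, 3.68-fold, adjusted p = 0.0251). Bcl2a1a, the remaining copy measured, was at 1.87 (SE 0.43, adjusted p = 0.143), and the 3 probe sets are uncertain as separate genes. For both called copies Hom-Ctrl replicate 1 lay nearer to WT-Ctrl than replicate 2 did, and without it the differences were 2.33 (adjusted p = 0.00425) for Bcl2a1d and 2.19 (adjusted p = 0.0165) for Bcl2a1b.

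Of the 19 measured members of the BCL2 family these 2 passed (0.0811% over all sets), 13 lay above 0 and the median was 0.07. It was 0.06 without Hom-Ctrl replicate 1, and up to 0.19, without Hom-Ctrl replicate 2. At an unadjusted p under 0.05, 3 of the 19 were higher and 0 lower (5.06% and 3.48% over all sets), and these 3 were the A1 copies. The anti-death members Bcl2 and Mcl1 had differences of 0.04 (SE 0.43, adjusted p = 0.988) and 0.03 (SE 0.22, adjusted p = 0.987). Bcl2 read 9.94, 10.47 and 9.51 in WT-Ctrl, 8.44 and 7.87 in WT-NMyc, 10.64 and 11.19 in Hom-Ctrl and 9.26 and 9.02 in Hom-NMyc.

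Ltf, the gene of lactoferrin, an iron-binding protein of neutrophil secondary granules, read 11.94, 12.00 and 11.98 in WT-Ctrl, 9.30 and 9.54 in WT-NMyc, 10.81 and 10.29 in Hom-Ctrl and 9.34 and 9.73 in Hom-NMyc. Hom-Ctrl lay between WT-Ctrl and the NMyc arrays, and the NMyc arrays of both genotypes overlapped. Ltf fell by 2.55 in WT (adjusted p = 2.87e-07) and by 1.02 in Hom (adjusted p = 0.00119), a difference of 1.53 (SE 0.25, 2.9-fold, adjusted p = 0.0318). The call held in 4 of the 14 fits that left out 1 array, and without Hom-Ctrl replicate 1 the difference was 1.79 (adjusted p = 0.0165).

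The neutrophil granule and maturation list had 24 measured members, of which Ltf passed and 20 lay above 0. The list had 9 members higher and 0 lower at an unadjusted p under 0.05 (5.06% and 3.48% over all sets). Its median difference was 0.47 (0.59 without Hom-Ctrl replicate 1), and the median gap between Hom and WT was -0.68 with Ctrl and 0.03 with NMyc. Averaged over the list, levels were 11.39 to 11.51 in WT-Ctrl, 10.40 to 10.41 in WT-NMyc, 10.66 to 10.89 in Hom-Ctrl and 10.22 to 10.38 in Hom-NMyc, with all 24 members above background in every group. Cd177 and Itgb2l, surface proteins of maturing neutrophils, were at 1.27 (SE 0.24, adjusted p = 0.0647) and 1.08 (SE 0.21, adjusted p = 0.067). Without Hom-Ctrl replicate 1, Cd177 passed at 1.48 (adjusted p = 0.0356), which gave the list 2 calls, and Itgb2l was at 0.95 (adjusted p = 0.164). The primary granule genes Elane and Mpo, made at an earlier stage, were at 0.13 (adjusted p = 0.911) and 0.12 (adjusted p = 0.929), and Ngp and Camp, further secondary granule genes, at 0.10 (adjusted p = 0.928) and 0.58 (adjusted p = 0.68). The part of cell composition in the difference of effects was not tested.

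Siglecf, a sialic acid binding receptor that marks eosinophils in mice, read 8.18, 8.42 and 7.99 in WT-Ctrl, 6.92 and 6.73 in WT-NMyc, 6.90 and 7.39 in Hom-Ctrl and 7.45 and 7.52 in Hom-NMyc. It fell by 1.38 in WT (adjusted p = 4.36e-05), the Hom effect was 0.34 (adjusted p = 0.249), and the difference was 1.72 (SE 0.25, 3.29-fold, adjusted p = 0.0147), or 1.47 without Hom-Ctrl replicate 1 (adjusted p = 0.0371). Defining eosinophil genes did not pass the test. Epx, eosinophil peroxidase, was at -0.59 (adjusted p = 0.669), Prg2, the major basic protein, at 0.28 (adjusted p = 0.856), and Ccr3 and Il5ra were not above background in the mean of any of the 4 groups. Of 24 measured mast cell, basophil and eosinophil genes Siglecf alone passed, 13 lay above 0, and the median was 0.05 (0.06 without Hom-Ctrl replicate 1, and -0.04 to 0.20 over the fits that left out 1 array). At an unadjusted p under 0.05, 2 of the 24 were higher and 0 lower (5.06% and 3.48% over all sets). The list's mean level was 8.82 to 9.06 in WT-Ctrl, 7.99 in both WT-NMyc arrays, 9.01 to 9.05 in Hom-Ctrl and 8.20 to 8.32 in Hom-NMyc.

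Among 30 monocyte, macrophage and dendritic genes limma called 0, 22 lay above 0, and the median was 0.35. Of the 30, 9 were higher and 0 lower at an unadjusted p under 0.05 (5.06% and 3.48% over all sets). The monocyte median depended on the Hom-Ctrl arrays, at 0.66 without replicate 1 and 0.05 without replicate 2. Without Hom-Ctrl replicate 1 the list held 2 calls, F13a1 at 1.70 (adjusted p = 0.0339) and Clec5a, a myeloid surface lectin, at 2.62 (adjusted p = 0.0484), and with all arrays Clec5a was at 1.99 (SE 0.51, adjusted p = 0.189). The list's mean level was 7.96 to 8.18 in WT-Ctrl, 6.81 to 6.91 in WT-NMyc, 7.21 to 7.83 in Hom-Ctrl and 6.80 to 6.83 in Hom-NMyc. F13a1, coagulation factor XIII made by monocytes, read 9.73, 9.84 and 9.76 in WT-Ctrl, 7.96 and 8.08 in WT-NMyc, 8.34 and 7.83 in Hom-Ctrl and 7.59 and 7.96 in Hom-NMyc, with a difference of 1.44 (SE 0.27, adjusted p = 0.067). Only WT-Ctrl stood apart. Csf1r, the receptor that defines the lineage, was at 0.46 (SE 0.45, adjusted p = 0.833), and Siglech was not above background in any group mean.

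Serpinb10, a protease inhibitor of blood-forming cells, had its larger gap between genotypes with NMyc rather than with Ctrl. It read 10.25, 10.50 and 10.50 in WT-Ctrl, 6.85 and 6.58 in WT-NMyc, 10.11 and 10.22 in Hom-Ctrl and 7.72 and 7.99 in Hom-NMyc. The gap between genotypes was -0.25 with Ctrl (adjusted p = 0.465) and 1.14 with NMyc (adjusted p = 0.127). Serpinb10 fell by 3.70 in WT (adjusted p = 1.56e-09) and by 2.31 in Hom (adjusted p = 1.63e-06), a difference of 1.39 (SE 0.23, 2.62-fold, adjusted p = 0.0318) that lost its call without Hom-Ctrl replicate 1 (1.33, adjusted p = 0.0843) and held in 3 of the 14 fits.

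Gpr141, an orphan G protein-coupled receptor, read 9.74, 9.60 and 10.02 in WT-Ctrl, 8.69 and 8.86 in WT-NMyc, 8.92 and 8.79 in Hom-Ctrl and 9.55 and 9.55 in Hom-NMyc. It was high in WT-Ctrl and Hom-NMyc, falling by 1.01 in WT (adjusted p = 0.000214) and rising by 0.70 in Hom (adjusted p = 0.0082). For Gpr141 the difference was 1.71 (SE 0.23, 3.27-fold, adjusted p = 0.0131), or 1.77 without Hom-Ctrl replicate 1 (adjusted p = 0.0262), and 10 of the 14 fits kept the call.

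For the remaining higher genes the WT fall exceeded the change in Hom, and Hom-Ctrl lay below WT-Ctrl. Ipcef1, which interacts with cytohesin exchange factors, read 8.0, 8.12 and 8.20 in WT-Ctrl and 5.90 to 6.60 in all 6 other arrays. It fell by 1.97 in WT (adjusted p = 5.24e-06), the Hom effect was -0.14 (adjusted p = 0.722), and the difference was 1.83 (SE 0.28, 3.54-fold, adjusted p = 0.0226), or 2.09 without Hom-Ctrl replicate 1 (adjusted p = 0.0165). Crispld2, a secreted protein that binds lipopolysaccharide, read 7.79, 7.77 and 7.68 in WT-Ctrl, 6.44 and 6.49 in WT-NMyc, 6.83 and 6.79 in Hom-Ctrl and 6.77 and 6.88 in Hom-NMyc. Its difference was 1.30 (SE 0.19, 2.47-fold, adjusted p = 0.0147), with a Hom effect of 0.02, and it was 1.32 without Hom-Ctrl replicate 1 (adjusted p = 0.0332). Nxpe5 read 7.30, 7.95 and 8.22 in WT-Ctrl, 5.67 and 5.53 in WT-NMyc, 6.56 and 6.84 in Hom-Ctrl and 6.28 and 6.41 in Hom-NMyc, with a difference of 1.86 (SE 0.31, adjusted p = 0.0349). Rps6kc1 read 7.50, 7.67 and 7.28 in WT-Ctrl, 5.78 and 5.88 in WT-NMyc, 6.32 and 6.23 in Hom-Ctrl and 5.93 and 6.68 in Hom-NMyc, with a difference of 1.68 (SE 0.29, adjusted p = 0.0406). Both calls were fragile: Nxpe5 and Rps6kc1 each held in 2 of the 14 fits, and without Hom-Ctrl replicate 1 their differences were 1.72 (adjusted p = 0.108) and 1.73 (adjusted p = 0.0793).

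Lrrk2, a large kinase and GTPase of myeloid cells whose mutations cause familial Parkinson disease, read 7.21, 7.39 and 7.44 in WT-Ctrl, 5.17 and 4.90 in WT-NMyc, 5.89 and 5.19 in Hom-Ctrl and 4.86 and 4.89 in Hom-NMyc. The NMyc arrays of both genotypes lay close above the background of 4.59. It fell by 2.31 in WT (adjusted p = 1.22e-06) and by 0.66 in Hom (adjusted p = 0.0353), a difference of 1.65 (SE 0.28, 3.13-fold, adjusted p = 0.0365) that held in 3 of the 14 fits, and was 1.99 without Hom-Ctrl replicate 1 (adjusted p = 0.0165). The remaining 2 higher sets were A530064D06Rik, at 1.47 (SE 0.24, adjusted p = 0.0318), and a set with no gene symbol in the annotation used, at 1.40 (SE 0.23, adjusted p = 0.0318). With Hom-Ctrl replicate 1 left out they were at 1.61 (adjusted p = 0.0339) and 1.57 (adjusted p = 0.0313).

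Ptgds, which encodes the lipocalin-type prostaglandin D synthase, was measured above background only in Hom-Ctrl. It read 4.05, 4.10 and 3.77 in WT-Ctrl, 3.49 and 4.04 in WT-NMyc, 6.13 and 5.85 in Hom-Ctrl and 3.89 and 3.69 in Hom-NMyc. The difference of effects was -1.99 (SE 0.29, adjusted p = 0.0147), and -1.40 when values under background were placed at it, which is a bound. The call held without Hom-Ctrl replicate 1 (-1.85, adjusted p = 0.0383), where the Hom effect rests on replicate 2. Slc28a1, a nucleoside transporter, read 3.83, 4.13 and 4.03 in WT-Ctrl, 5.08 and 4.79 in WT-NMyc, 5.09 and 4.57 in Hom-Ctrl and 4.33 and 4.26 in Hom-NMyc. Its difference was -1.47 (SE 0.26, adjusted p = 0.0483), or -0.60 with low values at background, with 2 WT-NMyc arrays and 1 Hom-Ctrl array above background. Without Hom-Ctrl replicate 1 the Slc28a1 difference was -1.21 (adjusted p = 0.125). Neither gene was tested once sets with a mean under background had been left out.

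With only 2 calls in this direction, the lower sets next in order of p are given as not passing. Mtap, the methylthioadenosine phosphorylase of methionine salvage, read 8.45, 8.66 and 8.22 in WT-Ctrl, 10.41 and 10.47 in WT-NMyc, 9.88 and 10.14 in Hom-Ctrl and 10.69 and 10.73 in Hom-NMyc. Hom-Ctrl lay near the NMyc level, and the effect was 2.00 in WT and 0.70 in Hom, a difference of -1.30 (SE 0.25, adjusted p = 0.0758). Tnfrsf8, a receptor of the TNF family, and Itm2a, a membrane protein, had their highest values in the Hom-Ctrl arrays, with differences of -1.16 (adjusted p = 0.0778) and -1.72 (adjusted p = 0.126). Ptp4a3, a tyrosine phosphatase, was at -0.99 (adjusted p = 0.134), Psg20, of the pregnancy-specific glycoproteins, at -1.03 (adjusted p = 0.143) and Rasgrp1, a Ras activator, at -1.21 (adjusted p = 0.143). Stab2, a scavenger receptor, was at -1.12 (adjusted p = 0.15) but not above background on any of the 9 arrays.

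Several lists leaned towards a lower response in Hom without a call. Of 33 p53 target genes limma called 0, 28 lay below 0, and the median difference was -0.41. The list had 10 members lower and 0 higher at an unadjusted p under 0.05 (3.48% and 5.06% over all sets). The median gap between Hom and WT was 0.68 with Ctrl and 0.19 with NMyc. Eda2r, a death receptor family member raised by p53, read 4.86, 3.94 and 4.50 in WT-Ctrl, 4.83 and 4.54 in WT-NMyc, 6.58 and 6.58 in Hom-Ctrl and 5.5 and 5.35 in Hom-NMyc. Its WT arrays lay at or near background, Hom-Ctrl was the highest, and the difference was -1.41 (SE 0.33, adjusted p = 0.159). Zmat3, an RNA-binding p53 target, was at -1.30 (SE 0.39, adjusted p = 0.29), Cdkn1a, which encodes the cyclin-dependent kinase inhibitor p21, at -0.50 (SE 0.27, adjusted p = 0.644), and Mdm2, the ligase that degrades p53, at -0.37 (SE 0.22, adjusted p = 0.69). Without Hom-Ctrl replicate 1 the list median was -0.50.

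Among 25 sterol and fatty acid synthesis genes limma called 0 and 25 lay below 0. Of these, 7 were lower and 0 higher at an unadjusted p under 0.05 (3.48% and 5.06% over all sets). The median difference was -0.51, with or without Hom-Ctrl replicate 1. The median effect of N-Myc was 0.54 in WT and 0.07 in Hom. Scd1, the stearoyl-CoA desaturase, read 8.63, 8.91 and 8.62 in WT-Ctrl, 9.36 and 9.76 in WT-NMyc, 8.77 and 8.84 in Hom-Ctrl and 8.83 and 7.75 in Hom-NMyc, a difference of -1.36 (SE 0.37, adjusted p = 0.22). Its WT-NMyc arrays were the highest, and Hom-NMyc replicate 2 was the lowest. The cholesterol enzymes Cyp51 and Hmgcs1 were at -1.07 (adjusted p = 0.287) and -1.04 (adjusted p = 0.377), with Hom-Ctrl above WT-Ctrl for both.

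Nuclear genes of the respiratory chain had a smaller median N-Myc effect in Hom than in WT. Complex I had 35 measured members, 30 below 0, with a median of -0.22 and medians of 0.69 in WT and 0.43 in Hom for the effect itself. Complexes III, IV and V had 35 members, 32 below 0, a median of -0.22 and effects of 0.57 and 0.33. Limma called 0 in either list, with 4 and 5 lower and 0 higher at an unadjusted p under 0.05, and the gap between Hom and WT was 0.24 and 0.32 with Ctrl against 0.06 and 0.04 with NMyc. Ndufs5 was at -0.73 (adjusted p = 0.367) and Cox7a2 at -0.64 (adjusted p = 0.418). The list medians without Hom-Ctrl replicate 1 were -0.18 for complex I and -0.29 for the other complexes. Among the 73 mitochondrial ribosomal proteins the median was -0.13 (-0.11 without Hom-Ctrl replicate 1, -0.02 without WT-Ctrl replicate 2 and -0.08 without WT-NMyc replicate 2), with 50 below 0 and 0 calls (4 lower and 0 higher at an unadjusted p under 0.05), and Mrpl11 was at -1.01 (SE 0.26, adjusted p = 0.189). The 25 TCA cycle genes had a median of -0.21, with or without Hom-Ctrl replicate 1, with 20 below 0 and 0 calls (1 lower at an unadjusted p under 0.05). Over all tested sets 3.48% were lower and 5.06% higher at that level, and the ribosomal and TCA counts of lower members lay near that share.

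Genes that MYC proteins are best known to raise gave no call, which is near the 0.0811% called over all tested sets. The 47 ribosome biogenesis genes had median effects of 1.15 in WT and 1.11 in Hom, a median difference of 0.02 (-0.08 to 0.14 over the fits that left out 1 array, the lowest without Hom-Ctrl replicate 1), and 0 calls by limma (0 at an unadjusted p under 0.05). Their single differences ranged from -0.44 to 0.65. Of the 40 DNA replication genes 2 were higher at an unadjusted p under 0.05, near the share of 5.06% over all sets. They lay above 0 in 33 cases, with 0 calls and a median of 0.27. This median was 0.22 without Hom-Ctrl replicate 1, 0.14 without WT-Ctrl replicate 3 and -0.07 within the code run that holds all 4 groups. The highest member was Pole2, a subunit of DNA polymerase epsilon, at 0.82 (SE 0.21, adjusted p = 0.201). Myc, the relative of N-Myc whose own transcription MYC proteins can repress, read 11.45, 11.39 and 11.38 in WT-Ctrl, 9.45 and 9.93 in WT-NMyc, 11.19 and 11.34 in Hom-Ctrl and 10.35 and 10.64 in Hom-NMyc. Both Hom-NMyc arrays lay above the WT-NMyc arrays, as they did for 25.9% of all tested sets. The gap of 0.81 with NMyc did not pass (adjusted p = 0.233). Myc fell by 1.72 in WT (adjusted p = 4.22e-06) and by 0.77 in Hom (adjusted p = 0.0062), and the difference of 0.95 (SE 0.24) did not pass (adjusted p = 0.183, or 0.348 without Hom-Ctrl replicate 1).

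Markers of other cells that a lineage depletion could leave behind were low or gave few differences. The mean level of the 14 B lymphoid genes was 5.25 to 5.33 in WT-Ctrl, 5.22 to 5.25 in WT-NMyc, 5.05 to 5.21 in Hom-Ctrl and 5.21 to 5.23 in Hom-NMyc, with a median difference of 0.15. For the 16 T and NK genes the levels were 5.46 to 5.64, 5.27 to 5.43, 5.62 to 5.63 and 5.30 to 5.32 in the same order of groups, and the median difference was -0.04. The 15 stromal and endothelial genes gave -0.05, and Lum, Dcn, Lepr, Cdh5 and Kdr among them were not above background in any group mean. The 20 megakaryocyte genes had effects of -1.37 in WT and -1.45 in Hom with a median difference of 0.01. Limma called 0 in these 4 lists. Higher at an unadjusted p under 0.05 were 1, 0, 1 and 1 members (5.06% over all sets). Lower at that level were 0, 0, 0 and 1 (3.48% over all sets). The medians without Hom-Ctrl replicate 1 were 0.24 for B lymphoid, -0.07 for T and NK, -0.05 for stromal and endothelial and -0.11 for megakaryocyte genes. Of 28 inflammatory cytokine and NF-kB genes, a list that includes Ccl2, 19 lay below 0 and limma called 0 with all arrays. At an unadjusted p under 0.05, 5 were lower and 3 higher (3.48% and 5.06% over all sets). The median of that list was -0.28, and -0.18 without Hom-Ctrl replicate 1. Among all list members not called with every array, Cd177, F13a1, Clec5a and Ccl2, a monocyte-attracting chemokine, passed without it, Ccl2 at 1.62 (adjusted p = 0.0313) against 0.90 (adjusted p = 0.576) with it.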

How the data were processed

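Expression values were deposited on a log2 scale, 1 for each probe set in each sample. The submitters' processing notes name Affymetrix Expression Console. For its version, summary method and normalization the sources used here give nothing, and the range of values (2.24 to 13.5) is that of a log2 scale. Scaling before deposit can remove a change shared by most transcripts. No further scaling was applied. Of 28846 probe sets, 6640 control sets recognised by their IDs were left out (5222 negative, 1324 positive, 63 spike-in and 31 AFFX sets). Of the 22206 tested, 19572 had 1 gene symbol in the platform annotation, 0 had several and 2634 had none. Gene symbols were compared with a RefSeq table of assembly GRCm38.p6, which changed 0.

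All 14 arrays entered a single linear model with a mean for each of the 6 groups, in limma 3.58.1 under R 4.3.3 (lmFit, eBayes, 8 residual and 7.3 prior degrees of freedom). The contrast (Hom-NMyc minus Hom-Ctrl) minus (WT-NMyc minus WT-Ctrl) was tested on both sides with Benjamini-Hochberg adjustment over all tested sets, and an adjusted p under 0.05 was a call. Every adjusted p is limma's. The labels call the replicates biological without naming separate animals or cultures, so the p-values reflect only how these arrays vary, and their small number limits the precision. The procedure was also run on simulated arrays with independent noise and no shift between code runs. Its outcome is not given here and is no support for the calls.

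Up to 15 called sets with 1 symbol were named per direction, without clone, predicted or unnamed genes, with called list members, Mycn, Myc and Polg, and the 10 smallest p of a direction with under 5 calls. A530064D06Rik and the unnamed set were added after their values were seen. Genes were described by 32 lists (908 entries, 840 measured). The members and lists were chosen with earlier results of these data known. List values are counts and medians, with no set test. A list entry without a probe set under its symbol was matched through a synonym only where that entry is no official symbol of another gene.

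The replicate numbers were checked as pairs over 12 pairs of same-numbered arrays. Deviations from the group means correlated at -0.133 to 0.194, and at 0.026 to 0.194 where both arrays shared a code run. In groups of 2 arrays the deviations mirror each other, so the 12 values are not separate checks. Same-numbered Ctrl and NMyc arrays came from different code runs, so the check could not show a pairing by run. The numbers were not taken to pair the samples. The sample codes form 3 runs, which the labels do not call batches. Only run 2 holds all 4 groups. Alternatives covered normalization, low signal, control sets, the spread, the arrays in the fit, the runs, the replicate block and each array left out. Placing low values at background was added after seeing the data. Promoter windows came from RefSeq through Python 3.11.15 and Biopython 1.88.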

Additional observations from a re-analysis of the deposited data

Results flagged for a closer look

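The effect of N-Myc differed between Hom and WT, by the limma test of the difference itself, for 18 probe sets. In log2 units, Hom minus WT, the differences were 2.44 for Cth, 1.99 for Bcl2a1d, 1.88 for Bcl2a1b, 1.86 for Nxpe5, 1.83 for Ipcef1, 1.82 for Chac1, 1.72 for Siglecf and 1.71 for Gpr141. They were 1.68 for Rps6kc1, 1.65 for Lrrk2, 1.53 for Ltf, 1.48 for Vldlr, 1.47 for A530064D06Rik, 1.4 for the set without a symbol, 1.39 for Serpinb10 and 1.3 for Crispld2. The 2 negative differences were -1.99 for Ptgds and -1.47 for Slc28a1. All groups of the comparison held 2 or 3 arrays, too few for a check of single arrays against their group.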

How the results depend on the processing

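The number of calls moved with the estimate of the spread and with single arrays. From 18 (16 higher, 2 lower) it went to 5 (4 higher, 1 lower) with only AFFX control sets left out, to 48 (41 and 7) with an intensity trend, to 33 (30 and 3) with the code run as a random block and to 0 (0 and 0) with only the 9 WT and Hom arrays. It ranged from 0 to 33 over the fits without 1 array (higher 0 to 29, lower 0 to 6). Quantile normalization gave 17, median centring 18 and robust eBayes 18. Without dim probe sets it was 16, with 0 lower, since Ptgds and Slc28a1 were not tested. The code run as a fixed block gave 17 with 1 lower, and code runs 2 and 3 alone gave 26 with 4 lower. A fit with the replicate number as a block, which was not taken as a pairing, gave 25 (21 higher, 4 lower), 15 of them among the 18. No named gene that passed the test changed sign under any alternative run. The alternatives reuse the arrays that chose these genes, so a kept sign is no independent support. Apart from the settings whose construction says so, the cause of these moves was not tested. With 2 or 3 arrays a group, the SE was about 0.2 to 0.4 for most named genes, and differences of several SE could fail the test. The smallest called difference was 1.30, for Crispld2. Mtap at -1.30 (SE 0.25) and Itm2a at -1.72 (SE 0.38) did not pass. The absence of a call therefore does not exclude a difference of that size.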
